A study of Mus musculus with 4 samples.

Results

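The genes described here are the 10 members of the MYC, MAX and MXD network (Myc, Mycn, Mycl, Max, Mxd1, Mxd3, Mxd4, Mxi1, Mnt and Mga), chosen by symbol from the 19840 genes of the deposited table. All 10 were found and all 10 were among the 14070 genes with an adjusted p. RNA came from naive mouse embryonic stem cells grown in 2i/LIF, which combines kinase inhibitors with the cytokine LIF to hold pluripotent cells in their ground state. The cells carried a lentiviral control hairpin (shCtrl, 2 libraries) or one targeting Lncenc1, a long noncoding RNA (shLincenc1, 2 libraries) and were selected with puromycin for 2 days. The growth protocol names the lines E14TG2a and R1 and the treatment protocol names a pair of hairpins per gene, and the labels tie no library to a line or a hairpin. Separate cultures are not stated for the libraries of a group, so p-values may rest on technical spread.

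The deposited table gives 1 comparison, with a positive fold change for genes higher in the group with more Lncenc1, and does not name its numerator. The groups are therefore called Lncenc1-high (libraries H1 and H2) and Lncenc1-low (L1 and L2). Lncenc1 itself stood at 6400 and 7250 normalized reads in H1 and H2 and at 2126 and 2121 in L1 and L2. A normalized read count is a whole read count divided by the library's size factor, and each library's counts were worked out from the means in the table. Recovered totals were 26132883 reads in H1 and between 10456474 and 11003591 in the other 3 libraries, leaving out 25 genes without recovered counts. For a gene at a similar level in all libraries, H1 therefore carries the least relative counting error. The 8 naive stem cell markers examined, Nanog, Pou5f1, Sox2, Zfp42, Esrrb, Klf4, Tfcp2l1 and Tbx3, summed to 68295 to 72148 normalized reads in the Lncenc1-high and 57890 to 61463 in the Lncenc1-low libraries. All 8 fold changes were positive, per the authors' deposited table, and in 7 both Lncenc1-high libraries lay above both Lncenc1-low libraries. Over all tested genes with recovered counts, 20.6% showed that pattern and 20.7% its reverse. None of the 8 naive markers passed the deposited DESeq2 test or voom. At an unadjusted p under 0.05 were 2 (DESeq2) and 3 (voom), beside 8.82% and 10.2% of all tested genes. Fibroblast markers summed to 137 to 161 and to 222 to 375 normalized reads, most of them Fbn1, and Col3a1 was at 0 in H2 and L2. The 3 fibroblast markers tested had negative fold changes (median -0.99, per the authors' deposited table). None of these 3 passed the DESeq2 test or voom, with Fbn1 at an unadjusted DESeq2 p of 0.0149. Primitive endoderm markers summed to 35.1 to 45.2 and to 49.4 to 54.2 normalized reads, with Gata6 and Sox7 at 0 in H2. Of the 2 tested, 1 had a positive and 1 a negative fold change, and neither passed the DESeq2 test or voom. These were Gata4 at 0.87 ± 0.91 (SE) and Dab2 at -1.79 ± 1.16 (SE), per the authors' deposited table. Markers of primed or differentiating cells summed to 940 to 1075 and to 782 to 1113 normalized reads, with Fgf5 at 0 in all libraries but H1. Nes, 1 of these markers, had a log2 fold change of -0.41 ± 0.27 (SE), per the authors' deposited table. Of the 4 tested, 2 had positive and 2 negative fold changes. As higher in the Lncenc1-high group 1 of the 4 passed, beside 0.505% of all tested genes. Among them T, the brachyury gene, passed the deposited DESeq2 test at 162 and 426 normalized reads in H1 and H2 and 70.2 and 37.1 in L1 and L2 (adjusted p = 0.000322), though not without H2 (adjusted p = 0.382) or without L2 (adjusted p = 0.123). The part of these differences in the results below was not tested.

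MYC proteins are transcription factors of the basic helix-loop-helix leucine zipper class. They bind DNA as pairs with MAX, preferably at the E-box, and recruit coactivators to genes of growth, metabolism and ribosome production. MXD proteins, MNT and MGA pair with the same MAX and oppose MYC: the MXD proteins and MNT bring SIN3 corepressors, and MGA brings MAX into a variant Polycomb complex that keeps germline genes silent in embryonic stem cells.

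The starts of Mxd4 and Mycl are shown because these were the 2 members that passed the test, and that of Mnt as a member that did not, with an E-box like Mxd4. Each is the 250 bases before the annotated start in RefSeq (GRCm38.p6), written 5′ to 3′ on the gene's strand, with the E-box CACGTG in capitals.
Mxd4, chr5:34187711-34187960, minus strand: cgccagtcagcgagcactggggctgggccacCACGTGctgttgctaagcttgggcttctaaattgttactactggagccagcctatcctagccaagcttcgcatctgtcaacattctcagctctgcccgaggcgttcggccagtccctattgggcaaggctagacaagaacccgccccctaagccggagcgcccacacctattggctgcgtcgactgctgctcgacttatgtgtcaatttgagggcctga
Mycl, chr4:122995681-122995930, plus strand: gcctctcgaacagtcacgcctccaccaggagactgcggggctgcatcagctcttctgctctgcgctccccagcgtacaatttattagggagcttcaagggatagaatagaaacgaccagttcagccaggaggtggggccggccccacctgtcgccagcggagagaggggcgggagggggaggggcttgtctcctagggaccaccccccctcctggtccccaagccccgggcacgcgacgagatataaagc
Mnt, chr11:74830674-74830923, plus strand: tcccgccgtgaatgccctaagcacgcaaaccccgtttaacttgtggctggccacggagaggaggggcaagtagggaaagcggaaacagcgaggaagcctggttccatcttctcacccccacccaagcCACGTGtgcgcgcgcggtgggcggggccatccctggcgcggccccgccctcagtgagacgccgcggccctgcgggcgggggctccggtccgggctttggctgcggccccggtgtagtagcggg
The motif CACGTG, which reads the same on both strands, occurred once in the Mxd4 and once in the Mnt window and was not in the Mycl window. Of the 9 members with a RefSeq window, which leaves out Myc, these 2 held it in the 250 bases before a start. Counted by window, 2 of 11 member windows (18.2%) held it, beside 6.02% of all 32851 windows. Max held it too when the 50 bases after the start were included, which made 3 of 9 members. Of all windows 7.15% then held it, a share of windows and not of genes. A match is a run of letters and not a measured binding site.

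Transcripts of the 10 members spanned a wide range of levels. Per kilobase of the longest annotated transcript, the order by mean over the 4 libraries was Mycn at 925 ± 244 normalized reads per kilobase (SD, n = 4), Mga at 752 ± 142 (SD, n = 4) and Max at 440 ± 23.1 (SD, n = 4). Mnt followed at 104 ± 9.32, Mycl at 84.0 ± 45.7, Mxi1 at 72.7 ± 20.2 and Mxd3 at 57.0 ± 7.75 normalized reads per kilobase (SD, n = 4). Mxd4 at 34.1 ± 42.6, Myc at 21.95 ± 12.9 and Mxd1 at 17.8 ± 5.78 normalized reads per kilobase (SD, n = 4) came last. Every library of Mga lay above every library of Max, and every library of Max above every one of Mnt. All other neighbours in the order overlapped across the libraries. With the mean length over a gene's transcripts in place of the longest, 4 of the 10 kept their place, Mga came before Mycn, Mxi1 before Mycl and Mxd1 before Myc.

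**Figure D1:**
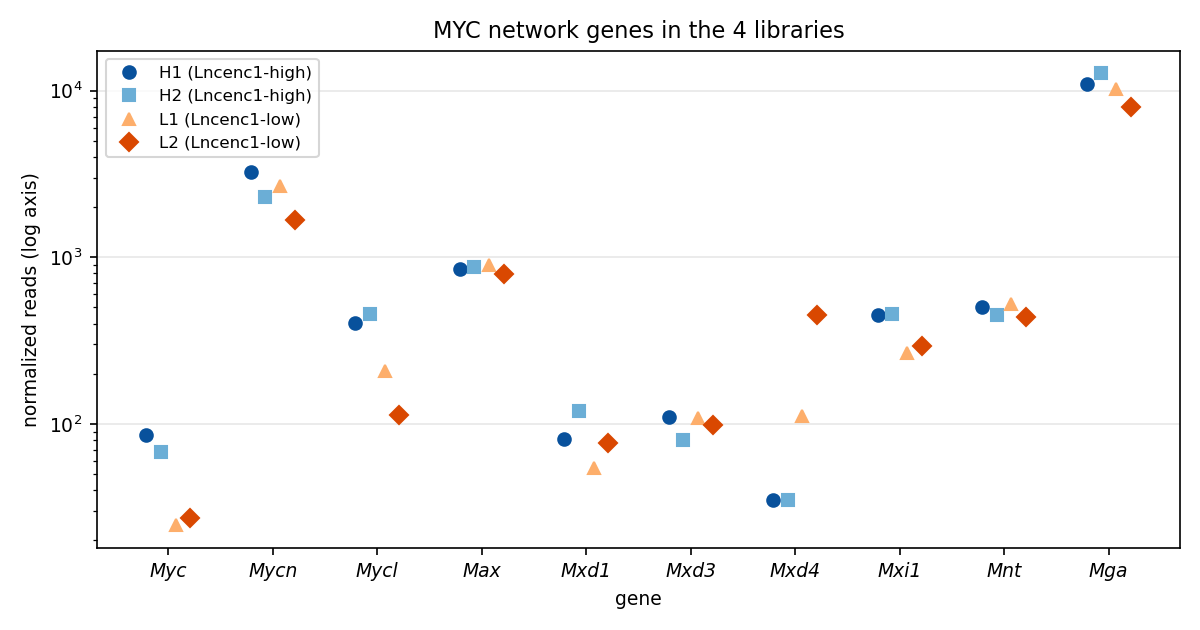
Normalized reads (log axis) of the 10 network genes in each of the 4 libraries. Mxd4 lies near 35 in both Lncenc1-high libraries and at 112 and 449 in the Lncenc1-low libraries, Mycl and Myc are lower in the Lncenc1-low libraries, and the groups overlap for Max and Mnt.

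The comparison asks how the network differs between the Lncenc1-high and Lncenc1-low groups, which also differ in the hairpin carried. Mxd4 was 8.01-fold higher in the Lncenc1-low group and Mycl 2.65-fold higher in the Lncenc1-high group, and these 2 of 10 members passed at a DESeq2 adjusted p under 0.05. Over all 14070 tested genes 1.53% passed the same test, 0.505% higher in the Lncenc1-high and 1.02% higher in the Lncenc1-low group. The median log2 fold change was 0.36 over the members and -0.0054 over all tested genes, from the authors' deposited table. Limma voom on the recovered counts passed 0 of the 10, with 5 at an unadjusted p under 0.05, namely Myc, Mycl, Mxd4, Mxi1 and Mga. Over all genes voom passed 0.0427%, with 10.2% at an unadjusted p under 0.05. At an unadjusted p under 0.05 in the DESeq2 test were 4 of the 10 members, Myc, Mycl, Mxd4 and Mxi1, beside 8.82% of all tested genes. A negative binomial refit, with each gene's dispersion taken from its deposited SE, passed 1 member without H1 (0.393% of all genes), 1 without H2 (0.556%), 2 when L1 was left out (1.39%) and 0 when L2 was (0.342%). With library totals for scaling it passed 2 (1.63% of all genes), and with no filter on low counts 2 of the deposited values passed (0.897%). In 5 members both Lncenc1-high libraries lay above both Lncenc1-low libraries, in 1 the reverse, and in 4 the groups overlapped. Over all tested genes with recovered counts, 20.6% showed the first pattern and 20.7% its reverse, 41.3% together.

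Of the activators, Mycl (ENSMUSG00000028654.12), the L-MYC gene, had 401 and 454 normalized reads in H1 and H2 and 208 and 114 in L1 and L2, from 781, 362, 169 and 92 reads. The groups did not overlap, and L2 was the lowest library. The group means were 428 ± 37.6 (SD, n = 2) and 161 ± 66.9 (SD, n = 2) normalized reads. The authors' deposited table gives Mycl a log2 fold change of 1.41 ± 0.35 (SE) with a DESeq2 adjusted p of 0.00825. In the refits Mycl passed without L1 (adjusted p = 0.00351) and not without H1 (adjusted p = 0.0841), H2 (adjusted p = 0.19) or L2 (adjusted p = 0.583). Its log2 fold change ranged from 1.04 to 1.91 in these fits.

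Myc (ENSMUSG00000022346.13), the c-MYC gene, had 85.7 and 67.7 normalized reads in H1 and H2 and 24.6 and 27.2 in L1 and L2. Both Lncenc1-low libraries were below both others, on 20 and 22 reads. The means were 76.7 ± 12.7 (SD, n = 2) and 25.9 ± 1.798 (SD, n = 2) normalized reads, and the authors' deposited table gives a log2 fold change of 1.57 ± 0.63 (SE), which did not pass (DESeq2 adjusted p = 0.288). Leaving out any 1 library gave values from 1.39 to 1.73.

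Mycn (ENSMUSG00000037169.13), the N-MYC gene, was the most abundant MYC gene per kilobase in every library. It had 3231 and 2296 normalized reads in H1 and H2 and 2688 and 1683 in L1 and L2, so the groups overlapped. Its log2 fold change was 0.34 ± 0.26 (SE), per the authors' deposited table (DESeq2 adjusted p = 0.86), and 0.04 to 0.72 without 1 library. Mycn made up 88.9% and 84.4% of the MYC family's reads per kilobase in H1 and H2 and 93.5% in each of L1 and L2. Mycl made up 8.42% and 12.8% in H1 and H2 and 5.53% and 4.82% in L1 and L2. Summed over the 3 genes, the family had 1359 and 1017 normalized reads per kilobase in H1 and H2 and 1075 and 674 in L1 and L2, so that the sum followed Mycn and overlapped between groups.

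Max (ENSMUSG00000059436.11), the shared partner, had 846 and 874 normalized reads in H1 and H2 and 901 and 796 in L1 and L2. The groups overlapped, and the authors' deposited table gives a log2 fold change of 0.02 ± 0.23 (SE), with a 95% interval from -0.42 to 0.46. A difference of 1.5-fold in Max is beyond that interval.

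Among the MXD genes, Mxd4 (ENSMUSG00000037235.12), coding for the MAX dimerization protein MAD4, had 34.9 and 35.1 normalized reads in H1 and H2 and 112 and 449 in L1 and L2. Underlying these were 68 and 28 reads against 91 and 363. Both Lncenc1-low libraries were above both others, and L2 exceeded L1 by a larger ratio than L1 exceeded H1 or H2. The means were 35.02 ± 0.15 (SD, n = 2) and 280 ± 238 (SD, n = 2) normalized reads. The authors' deposited table gives Mxd4 a log2 fold change of -3.001 ± 0.55 (SE), with a DESeq2 adjusted p of 3.15e-05. The refit gave -1.68 without L2, which did not pass (adjusted p = 0.553). Without H1, H2 or L1 it was -2.997, -3.006 and -3.68, each of which passed, with adjusted p of 0.00916, 0.00281 and 2.53e-05. The annotation places an antisense gene, Gm42846, over Mxd4 exons on the opposite strand. Whether the counting used the strand is not given in any source used here, so reads of this pair may not be separated.

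Mxi1 (ENSMUSG00000025025.12), another MXD family gene that codes for a SIN3-binding repressor, lay the other way from Mxd4. It had 450 and 458 normalized reads in H1 and H2 and 265 and 293 in L1 and L2, without overlap and with little spread within either group. The authors' deposited table gives a log2 fold change of 0.70 ± 0.28 (SE), which did not pass (DESeq2 adjusted p = 0.284), and leaving out any 1 library kept it between 0.63 and 0.78. Mxd1 (ENSMUSG00000001156.8), the MAD1 gene, had 81.6 and 119 normalized reads in H1 and H2 and 54.2 and 76.6 in L1 and L2. The groups of Mxd1 did not overlap but came close, and its log2 fold change of 0.61 ± 0.52 (SE), per the authors' deposited table, did not pass (DESeq2 adjusted p = 0.914).

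Mxd3 (ENSMUSG00000021485.12), an MXD gene tied to dividing cells, had 109 and 80.3 normalized reads in H1 and H2 and 108 and 98.9 in L1 and L2, and the groups overlapped. Its log2 fold change was -0.12 ± 0.46 (SE), per the authors' deposited table (DESeq2 adjusted p = 0.999), with a 95% interval from -1.03 to 0.79. Exons of Mxd3 overlap those of Prelid1 on the opposite strand, a far more abundant transcript at 2809 to 3164 normalized reads, which limits the value if strands were not separated. Per kilobase, Mxd4 was 4.26% and 4.46% of the 4 MXD genes in H1 and H2, 16.1% in L1 and 42.5% in L2. Mxi1 led that family in H1 and H2 at 50.4% and 53.4%, Mxd3 in L1 at 41.3% and Mxd4 in L2.

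**Figure D2:**
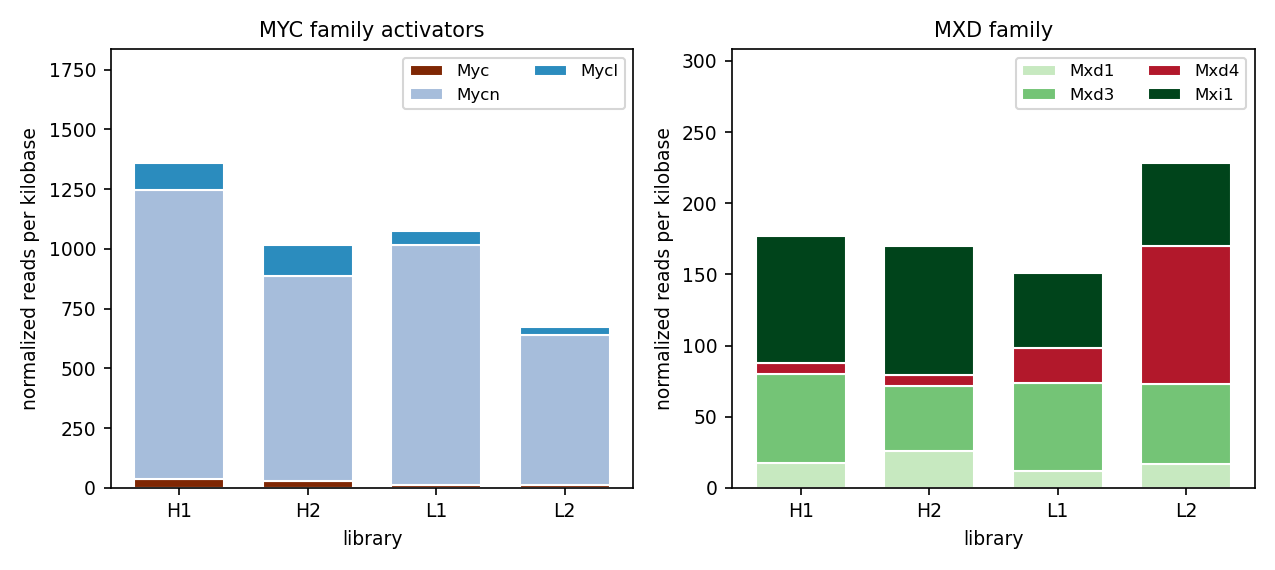
Normalized reads per kilobase of the longest transcript, stacked by gene, for the 3 MYC genes (left) and the 4 MXD genes (right) in each library. Mycn fills most of every left bar, and Mxd4 goes from 4.26% of the right bar in H1 to 42.5% in L2.

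Mnt (ENSMUSG00000000282.11), coding for a broadly expressed MAX partner that represses MYC targets, had 505 and 448 normalized reads in H1 and H2 and 525 and 437 in L1 and L2. The groups overlapped, and the authors' deposited table gives -0.01 ± 0.26 (SE) on the log2 scale, with a 95% interval from -0.53 to 0.51. Mga (ENSMUSG00000033943.14), coding for the large MAX partner with a T-box domain, had 11036 and 12712 normalized reads in H1 and H2 and 10223 and 7942 in L1 and L2. Both Lncenc1-high libraries were above both others, L1 was close to H1, and L2 was the lowest. The log2 fold change of Mga, per the authors' deposited table, was 0.39 ± 0.20 (SE) and did not pass (DESeq2 adjusted p = 0.573). The counts of Mga were chosen among 69 whole-number solutions by the deposited fold change, whereas those of the other 9 members had 1 solution each.

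**Figure D3:**
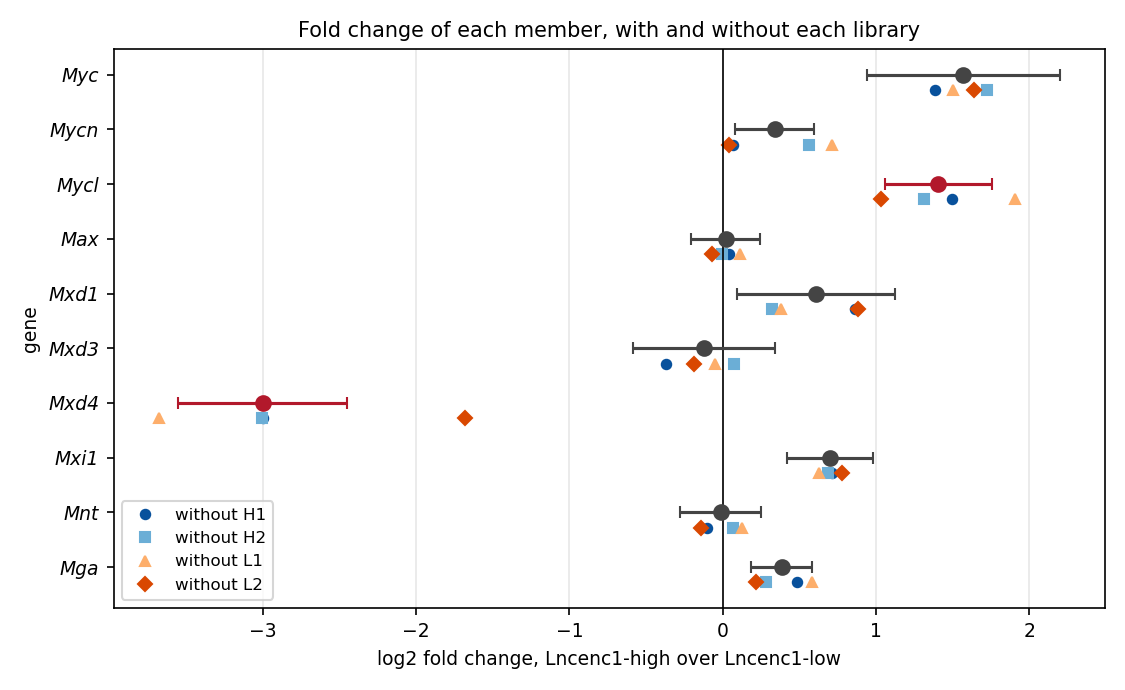
Log2 fold change of each member, Lncenc1-high over Lncenc1-low, from the authors' deposited table (large points, bars are SE, red where the adjusted p is under 0.05), and from refits without 1 library each (small points). Mxd4 moves from -3.001 to -1.68 without L2, and Mycl from 1.41 to 1.04.

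Genes with profiles nearest to the 2 called members over the 4 libraries were found by the distance between centred log2(normalized reads + 1) values among 10986 genes with a mean of at least 50. For Mxd4 these were Slc25a24, a mitochondrial carrier of adenine nucleotides, at a distance of 0.35, Tap1, a peptide transporter of antigen presentation, at 0.62, and the cytochrome gene Cyp1a1 at 0.70. Slc25a24 had 17.97 and 15.1 normalized reads in H1 and H2, 44.4 in L1 and 173 in L2. Its high value in L2 follows from its selection by these same values. For Mycl the nearest were the acyl-CoA thioesterase gene Acot1 at 0.17, Ubap1l at 0.19 and the gene model Gm6793 at 0.22. These are likenesses over 4 libraries only. With a lower minimum of 10 for the mean, 2 of the 6 genes remained. Both, Acot1 and Ubap1l, were near Mycl, and no gene named for Mxd4 was kept.

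Around the members, the parallel MLX branch, whose proteins respond to glucose metabolites and whose partner MLX also binds some MXD proteins, gave no call. The authors' deposited DESeq2 test and voom each passed 0 of its 3 genes, with 0 at an unadjusted p under 0.05 in either. Over all tested genes 8.82% (DESeq2) and 10.2% (voom) were at an unadjusted p under 0.05. Mlxipl, coding for ChREBP, had a log2-scale change of 0.24 ± 0.99 (SE) and Mlxip, coding for MondoA, -0.22 ± 0.37 (SE), per the authors' deposited table. Of 17 cofactors and corepressors both tests passed 0, with 0 (DESeq2) and 1 (voom) at an unadjusted p under 0.05 and a median of 0.0057. Among them the histone deacetylase gene Hdac1 had a value of 0.43 ± 0.22 (SE), per the authors' deposited table. Of 10 genes of MYC protein turnover both passed 0, with 1 (DESeq2) and 2 (voom) at an unadjusted p under 0.05 and a median of -0.19, per the authors' deposited table. Among them Skp2, of the ubiquitin ligase that acts on MYC, had 574 and 625 normalized reads in H1 and H2 and 1040 and 806 in L1 and L2. Its log2 fold change was -0.62 ± 0.24 (SE) and that of the ligase gene Trim32 was -0.37 ± 0.32 (SE), per the authors' deposited table.

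Known MYC targets of ribosome production gave no call either. Of 18 tested, the authors' deposited DESeq2 test passed 0, with 1 at an unadjusted p under 0.05, and voom passed 0 of the 17 with recovered counts, again with 1. The median log2 fold change was -0.02 and the range -0.52 to 0.18, per the authors' deposited table. The ends of the range below 0 were Bop1, a factor of large-subunit assembly, at -0.52 ± 0.22 (SE), and Polr1b, of RNA polymerase I, at -0.30 ± 0.21 (SE), per the authors' deposited table. Of 20 targets of growth and biosynthesis 2 passed, both higher in the Lncenc1-high group, beside 0.505% of all tested genes in that direction. The other 18 did not pass, and the list's median was 0.0050, per the authors' deposited table. The 2 that passed were Shmt2, of one-carbon metabolism, at 0.86 ± 0.21 (SE), and Ldha, of lactate production, at 0.75 ± 0.18 (SE), per the authors' deposited table. Neither passed without H1 or L2, and Ldha did not pass without H2. Voom passed 0 of the 18 with recovered counts (adjusted p = 0.176 for Shmt2 and 0.167 for Ldha). At an unadjusted p under 0.05 were 4 by voom and 3 in the DESeq2 test, beside 10.2% and 8.82% of all tested genes. Ccnd2, a cyclin gene, had -1.11 ± 1.20 (SE), per the authors' deposited table.

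Genes that MYC represses through MIZ1 gave no call. Of 6 tested, the authors' deposited DESeq2 test and voom each passed 0. At an unadjusted p under 0.05 were 0 (DESeq2) and 1 (voom), beside 8.82% and 10.2% of all tested genes. The median log2 fold change of the 6 was -0.44, per the authors' deposited table, 5 of 6 being negative. Cebpa at -1.73 ± 1.11 (SE) and Cdkn2b at -1.38 ± 0.79 (SE) were the largest, per the same table. Cebpa counts were 39 (H1), 1 (H2), 46 (L1) and 14 (L2) reads, and its log2 fold change went from -4.88 without H1 to -0.63 without L1. Of 5 noncoding host genes tied to MYC 1 passed, the small nucleolar RNA host gene Snhg3, at 0.85 ± 0.22 (SE), per the authors' deposited table. Over all tested genes 0.505% passed as higher in the Lncenc1-high group. Snhg3 had 6707 and 7788 normalized reads in H1 and H2 and 3287 and 4765 in L1 and L2. It passed without L2 and not without H1, H2 or L1 (adjusted p from 0.0765 to 0.36), nor by voom (adjusted p = 0.239). All 5 had positive fold changes, with a median of 0.41, per the authors' deposited table, and Dancr had 0.74 ± 0.51 (SE) in the same table.

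**Figure D4:**
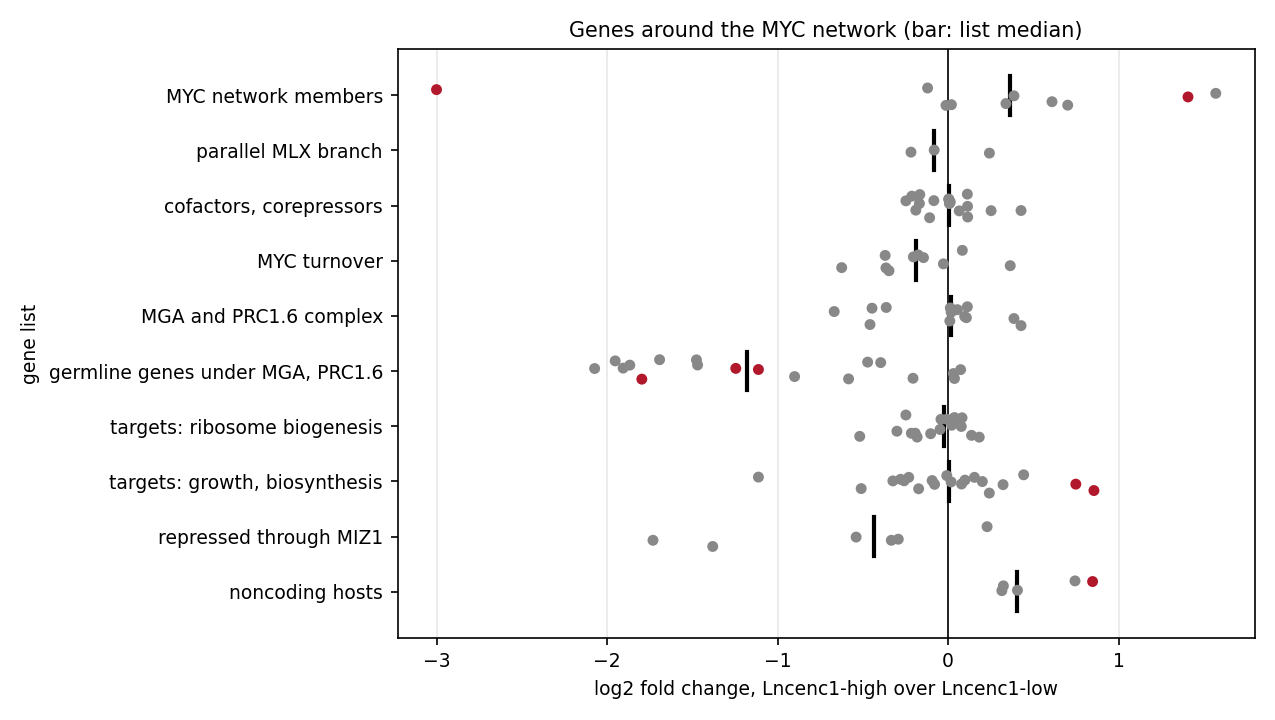
Log2 fold changes (Lncenc1-high over Lncenc1-low, from the authors' deposited table) of tested genes in each list, red where the adjusted p is under 0.05, with a bar at the list median. The germline list has its median at -1.18, and the 2 lists of activated targets have theirs near 0.

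Subunits of the complex that MGA and MAX form with Polycomb proteins gave no call. Of 14 tested, including Mga and Max, the authors' deposited DESeq2 test and voom each passed 0. The median log2 fold change was 0.02, per the authors' deposited table. At an unadjusted p under 0.05 were 0 (DESeq2) and 3 (voom), beside 8.82% and 10.2% of all tested genes. Those 3 were Mga, Hdac1 and Yaf2. Hdac1, Hdac2 and Wdr5 are also among the cofactors and corepressors above. Yaf2 had -0.67 ± 0.38 (SE) and the repressor gene E2f6 -0.46 ± 0.31 (SE), per the authors' deposited table, the largest of the list.

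Of 18 germline genes that this complex is known to silence in stem cells, 3 were called lower in the Lncenc1-high group. The other 15 did not pass, and 1.02% of all tested genes were called in that direction. This list was chosen with earlier results of these data known, so the shares are a description and not an independent comparison. The median log2 fold change was -1.18, per the authors' deposited table, 15 of 18 being negative. In 11 of 18 both Lncenc1-low libraries lay above both others, and in 0 the reverse. Over all tested genes with recovered counts, 20.7% showed the former pattern and 20.6% its reverse. One-sided counts were not particular to this list. The MYC turnover genes had 7 of 10 with the former pattern and 0 with its reverse. The noncoding hosts had 0 with it and 4 of 5 with its reverse, and the naive markers 0 and 7 of 8. Mael, of the piRNA pathway, had 84.7 and 66.5 normalized reads in H1 and H2 and 235 and 294 in L1 and L2, with a log2 fold change of -1.797 ± 0.38 (SE), per the authors' deposited table. Its DESeq2 adjusted p was 0.00076 in that table. Ddx4, the germ cell RNA helicase, had 109 and 114 normalized reads in H1 and H2 and 301 and 227 in L1 and L2. Hormad1, of the meiotic chromosome axis, had 205 and 153 in H1 and H2 and 401 and 378 in L1 and L2. The authors' deposited table gives -1.25 ± 0.36 (SE) for Ddx4 and -1.11 ± 0.32 (SE) for Hormad1, with DESeq2 adjusted p of 0.0422 and 0.0343. Adjusted over all genes with no filter on low counts, Ddx4 did not pass (adjusted p = 0.0595).

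The calls of the germline list were sensitive to single libraries. Mael passed without H1 and without L1 but not without H2 (adjusted p = 0.059), nor without L2 (adjusted p = 0.0879), and Ddx4 and Hormad1 passed in none of these fits. Voom passed 0 of the 18, with 7 at an unadjusted p under 0.05, as many as in the deposited DESeq2 test, beside 10.2% and 8.82% of all tested genes. Stra8, the retinoic acid-induced gene of meiotic entry, followed L2 rather than the group, at 350 normalized reads in L2, 17.3 in L1, 65.7 in H1 and 28.9 in H2. Meioc, a gene of meiotic progression chosen after its values were seen, had 316 in L2 and 30.8 in L1. Stra8 had -1.95 ± 1.68 (SE) and the surface protein gene Tex101 -2.07 ± 1.36 (SE), per the authors' deposited table, neither of which passed. Stag3, Sycp3, Smc1b and Dazl, also chosen after their values were seen, overlapped between groups.

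**Figure D5:**
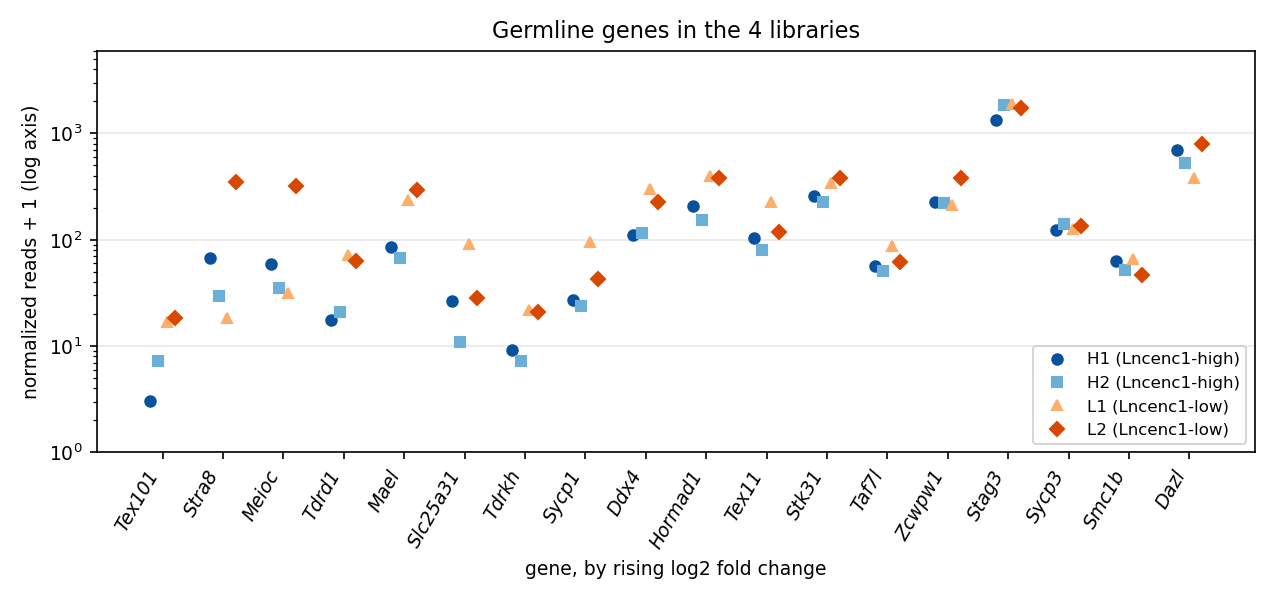
Normalized reads plus 1 (log axis) of 18 germline genes in each library, ordered by log2 fold change. Mael, Ddx4 and Hormad1 are higher in both Lncenc1-low libraries, and Stra8 and Meioc are highest in L2.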

How the data were processed

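RNA of 4 libraries was depleted of ribosomal RNA and sequenced strand-specifically, per the labels' protocols. Build mm9 and the tools TopHat2, HTSeq and DESeq2 1.8.2 are listed, per the submitters' processing notes, with no settings. The deposited table holds, per the file headers, a mean normalized read count (a signal never below 0), a log2 fold change with its standard error, a Wald statistic (a score), a p-value and an adjusted p-value, all computed by the authors, and no column per library. The edgeR test planned for counts was therefore not run, and the authors' adjusted p under 0.05 is the test used.

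Counts per library were recovered from each mean, a sum of 4 whole counts times fixed steps, with the fold change settling ties, for 19815 of 19840 genes. The other 25 hold 13.8% of the summed means. Where both groups had reads, 13901 of 14041 tested genes refitted to the deposited fold change within 1e-05. Size factors were 1.95, 0.797, 0.811 and 0.809. Recovery, the refit and voom were run on simulated data, with outcomes not given here. The simulated counts used the same dispersions that the refit was then given. How the refit behaves with a wrong dispersion was therefore not tested. Alternatives were limma 3.58.1 voom and a Wald refit of a negative binomial model, with each gene's dispersion taken from its deposited standard error and kept when a library was left out, which assumes a lone library varies like the others. All p-values were adjusted over all genes tested. Symbols were matched by Ensembl identifier (19707 of 19840), and lengths come from GENCODE M21, of another build. Members and lists were chosen with earlier results of these data known. All members, list genes past the threshold and the 2 largest fold changes per list are named, except 1 gene that is not reported here, with the 3 genes nearest to each called member.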

Additional observations from a re-analysis of the deposited data

How the results depend on the processing

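The count of called members was 2 in the deposited table, with library totals and without a filter on low counts. It was 0 by voom and ranged from 0 to 2 when 1 library was left out, lowest without L2 and highest without L1. The 6 called list genes outside the members became 0 by voom, 5 without a filter, where Ddx4 was lost, and 1 to 3 when 1 library was left out. The fits without a library have fewer libraries, and the cause of each lost call was not tested. Voom passed 6 genes in all. Some uncalled values changed sign. Leaving out 1 library gave Max -0.067 to 0.11, Mxd3 -0.37 to 0.077, Mnt -0.14 to 0.13, Mlxipl -0.29 to 1.10, Stra8 -2.88 to 1.46 and Ccnd2 -1.89 to 0.70. Library totals gave Max -0.0069 and voom gave Mnt 0.0085. The order by level per kilobase kept 4 of 10 places with mean transcript lengths. Of the 6 nearest genes 5 remained at a pseudocount of 0.5 and 2, both near Mycl, at a minimum mean of 10. No paired analysis was possible because the values per library carry no replicate number. The fold change of Myc rests on 20 to 22 reads in the Lncenc1-low libraries, and the part of counting error in its SE was not tested.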
